A study of Homo sapiens with 10 samples.

Results

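The short arm of chromosome 4, 4p, was followed gene by gene in MCF10A cells transformed by an HRas oncogene. Members were all rows of the untreated gene count table that lie on chromosome 4 and end below 48 Mb in hg19, which gave 297 genes of 26256 in the table. Of these, 168 passed the filter on low counts (14376 of all genes did) and entered the test, and 129 did not. The arm was selected on this same comparison, because its distal genes had been seen to be lower in the transformed cells. The values of G12V against MCF10A cells given here for the arm are therefore descriptions, and calls that rest on a p-value are counted for them without serving as support.

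MCF10A is an immortalized, non-tumorigenic human mammary epithelial line. G12V cells are MCF10A cells given HRas with a valine in place of glycine at codon 12 by lentivirus, with a GFP vector to follow transduction. There were 2 RNA-seq libraries each from untreated parental MCF10A and G12V cells, and 3 libraries each came from parental cells given 10 µM Nutlin-3a, an MDM2 inhibitor that stabilizes p53, or its vehicle DMSO for 4 h. All lines were grown with EGF, insulin, hydrocortisone, cholera toxin and horse serum. The study's methods call its replicates biological and do not describe how they were grown apart. Standard errors given here were derived from the edgeR fit to these libraries, which shares information on their spread between genes. Each is the absolute log2 fold change divided by the square root of the F statistic of its test. G12V cells were 1 transformed line, and what HRas did cannot be told apart from what else set that line apart from its parent.

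The tip of 4p is dense in genes. It carries the Wolf-Hirschhorn region, named for a developmental syndrome, with the histone methyltransferase gene WHSC1 (also NSD2), the mitochondrial gene LETM1 and the receptor gene FGFR3 among its best known genes. Further in lies HTT, whose repeat expansion causes Huntington disease. The rest of the arm holds long gene-poor stretches between clusters such as the TLR10, TLR1 and TLR6 receptors. In these data the 3.64 Mb distal to the boundary described below held 68 members, or 18.7 per Mb, against 5.16 per Mb over the remaining 44.4 Mb.

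The genes that flank the boundary are shown by the 250 bases before their annotated start, for the nearest 2 tested genes of at least 10 CPM (read counts scaled to the library total) on each side. RGS12 and LRPAP1 lie distal to it and were lower in G12V cells, and TMEM128 and LYAR lie proximal to it and were not. The sequences were read from GRCh37, the build of the table, at chr4:3315624-3315873 (plus strand) for RGS12, chr4:3534225-3534474 (minus strand) for LRPAP1, chr4:4249970-4250219 (minus strand) for TMEM128 and chr4:4291897-4292146 (minus strand) for LYAR. They run 5′ to 3′ towards the gene, and capitals mark the CG dinucleotides, the letters searched for (CG reads the same on both strands).
RGS12: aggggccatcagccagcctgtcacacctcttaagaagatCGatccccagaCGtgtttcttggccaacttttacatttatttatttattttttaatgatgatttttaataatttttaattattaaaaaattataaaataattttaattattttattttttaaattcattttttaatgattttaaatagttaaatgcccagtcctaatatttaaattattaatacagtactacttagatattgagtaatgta
LRPAP1: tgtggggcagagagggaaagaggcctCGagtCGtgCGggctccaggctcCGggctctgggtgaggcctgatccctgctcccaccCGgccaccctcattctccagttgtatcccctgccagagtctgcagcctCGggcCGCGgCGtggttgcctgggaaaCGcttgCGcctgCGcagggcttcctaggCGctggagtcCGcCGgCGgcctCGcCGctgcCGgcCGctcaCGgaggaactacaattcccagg
TMEM128: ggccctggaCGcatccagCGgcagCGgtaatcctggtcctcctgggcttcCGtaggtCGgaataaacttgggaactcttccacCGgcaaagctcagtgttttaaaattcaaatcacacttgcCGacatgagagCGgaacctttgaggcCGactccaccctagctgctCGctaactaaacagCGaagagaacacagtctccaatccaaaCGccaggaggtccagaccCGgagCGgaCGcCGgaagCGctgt
LYAR: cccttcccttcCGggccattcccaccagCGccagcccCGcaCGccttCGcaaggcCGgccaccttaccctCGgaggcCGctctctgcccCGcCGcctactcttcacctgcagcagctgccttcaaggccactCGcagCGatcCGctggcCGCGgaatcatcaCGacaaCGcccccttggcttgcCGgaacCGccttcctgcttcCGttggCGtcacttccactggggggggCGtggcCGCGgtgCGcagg
RGS12 held 2 CG dinucleotides in this window, LRPAP1 21, TMEM128 17 and LYAR 25. Over the tested genes distal to the boundary the median was 30, over those proximal to it 23, and over all tested genes 18. At least 10 were found in 81.5% of the distal, 81.6% of the proximal and 76.4% of all windows. The annotated start of RGS12 is 1 of several the gene can use, and the window describes only that one.

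The 4 untreated libraries held 21538593 to 23683975 counts. HRAS measured 72.6 and 65.9 CPM in MCF10A and 631 and 515 CPM in G12V libraries, which checks the labels. The summed level of 7 epithelial markers was 6736 and 8202 CPM in MCF10A and 1363 and 1662 CPM in G12V libraries. KRT14, KRT17 and CDH1 each stood below 2 CPM in both G12V libraries, whereas KRT5, KRT8 and KRT18 were still present. The leukocyte genes PTPRC and CD3E had 0 or 1 count in every library. CD68, a lysosomal gene abundant in macrophages that other cells also express, measured 12.3 and 12.1 CPM in MCF10A and 37.3 and 72.7 CPM in G12V libraries. The fibroblast markers COL1A1, COL1A2 and PDGFRA summed to 3.29 to 11.7 CPM and the endothelial markers PECAM1, VWF and CDH5 to 1.68 to 3.68 CPM. The part of these markers in the values of 4p was not tested. In bulk RNA, fewer cells that express a gene and less RNA per cell cannot be told apart.

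Along the arm, the log2 fold change of G12V over MCF10A cells was low at the telomeric end and near 0 elsewhere. In the first 5 Mb the median over 63 tested genes was -0.90. It was -0.07 from 5 to 10 Mb (26 genes), -0.06 from 10 to 15 Mb (6 genes) and 0.03 from 15 to 20 Mb (14 genes). The sparse middle of the arm gave -0.30 from 20 to 25 Mb (7 genes) and -0.16 from 25 to 30 Mb (9 genes), and PCDH7, a protocadherin gene, was the 1 tested gene from 30 to 35 Mb, at -0.53. Towards the centromere the medians were -0.05 (23 genes), 0.18 (14 genes) and 0.00 (5 genes). Within the first 5 Mb the medians of successive 1 Mb windows were -1.09, -0.84, -0.99, -0.95 and -0.15, with 19, 16, 14, 7 and 7 genes. The fall was thus about as deep in each of the first 4 windows and was small in the next.

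**Figure D1:**
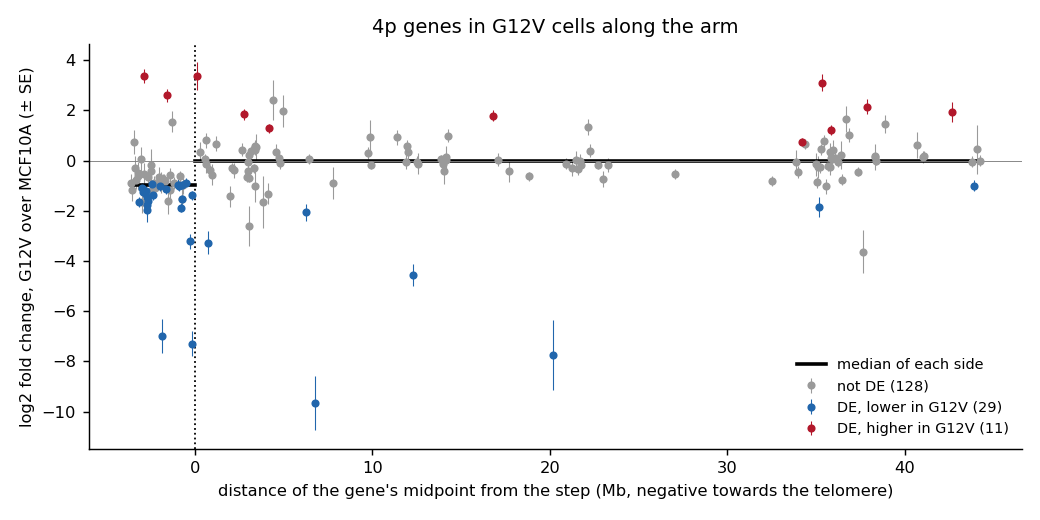
Log2 fold change of each of the 168 tested 4p genes, G12V over MCF10A cells (y axis, bars are the standard error derived from the edgeR fit), against the distance of its midpoint from the step (x axis, Mb, negative towards the telomere). Blue and red points passed the threshold for differential expression, grey points did not, and black lines are the medians of -0.95 on the distal and 0.00 on the proximal side.

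A single step was placed where the sum of absolute deviations from the medians of the 2 sides was lowest. It fell at 3.64 Mb, between LRPAP1, which ends at 3534224, and ADRA2C, which starts at 3768296, a gap of 234 kb. The same gap was found when each G12V library was set against each MCF10A library alone, in 4 of 4 pairs, which share libraries. Splits whose cost was within 2% of the lowest lay between 3.27 Mb, just after HTT, and 4.26 Mb, just before LYAR, and there were 7 of them. The 2 members that lie wholly in the gap, LINC00955 and LOC100133461, had 0 counts in every library, so nothing was measured between these genes. Among genes of at least 10 CPM on average the gap ran from LRPAP1 to TMEM128, with its middle at 3.88 Mb. The step lowered the cost of a single median by 15.1%, and by 9.55% to 17.3% in the library pairs. It was least sharp for G12V replicate 1 against MCF10A replicate 2, where 12 splits from 3.27 to 6.71 Mb were within 2% of the lowest cost.

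The 5 tested genes on the distal side of the step were all lower in both G12V libraries. GRK4, a kinase of G protein-coupled receptors, measured 1.5 and 1.81 CPM in MCF10A and 0.86 and 0.85 CPM in G12V libraries. HTT, which encodes huntingtin, measured 85.2 and 79.7 CPM against 47.3 and 42.9 CPM. LRPAP1, the chaperone of LDL receptor family proteins, measured 124 and 125 CPM against 49.1 and 46.0 CPM. The G12V libraries lay below the MCF10A libraries for each of the 3 genes, and HTT and LRPAP1 were at 54.7% and 38.3% of the MCF10A level in the fit. RGS12, a regulator of G protein signalling, measured 51.1 and 72.1 CPM in MCF10A and 7.48 and 5.75 CPM in G12V libraries. DOK7, the adaptor that activates the muscle kinase MuSK, had 236 and 260 counts in MCF10A and 2 and 1 counts in G12V libraries. RGS12 and DOK7 therefore stood far below the median of their neighbours.

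On the proximal side the next 5 tested genes behaved differently from each other. ADRA2C, the alpha-2C adrenergic receptor gene, had 12 and 8 counts in MCF10A and 70 and 142 counts in G12V libraries. FAM86EP, a pseudogene whose reads may be shared with its near-identical relatives, measured 3.0 and 1.76 CPM against 3.25 and 2.81 CPM. TMEM128, a membrane protein gene, measured 14.8 and 13.4 CPM against 14.5 and 14.6 CPM. LYAR, a nucleolar zinc finger protein gene, measured 87.5 and 49.4 CPM against 133 and 108 CPM. ZBTB49, a transcription factor gene, measured 3.91 and 4.10 CPM against 3.21 and 4.01 CPM. Both groups overlapped for FAM86EP, TMEM128 and ZBTB49, while ADRA2C and LYAR were higher in both G12V libraries. From the step to 10 Mb the median log2 fold change over 35 tested genes was -0.05, and 18 of them were below 0.

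**Figure D2:**
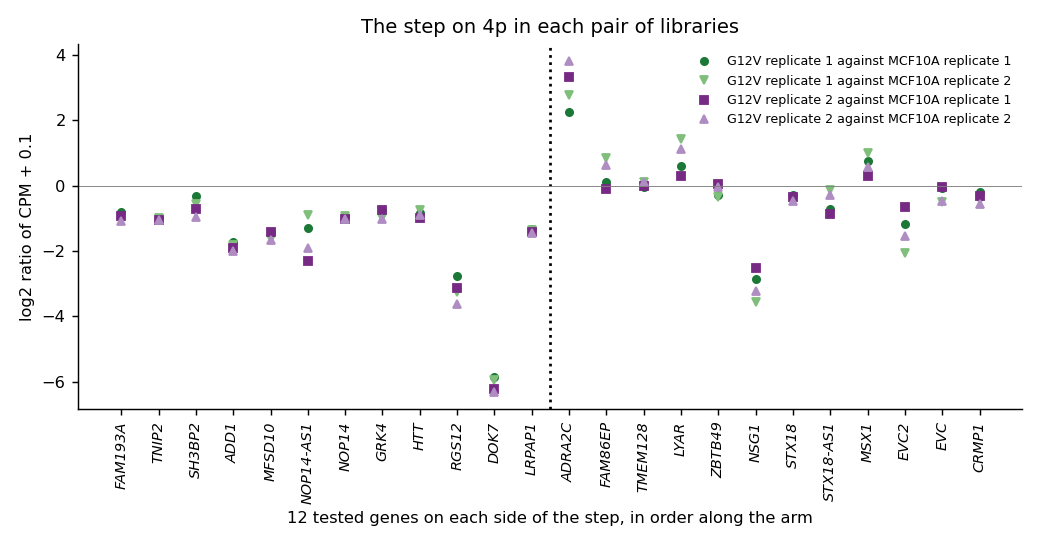
Log2 ratio of CPM + 0.1 in each of the 4 pairs of a G12V and an MCF10A library (y axis) for the 12 tested genes on each side of the step in their order along the arm (x axis, dotted line at the step). All 12 distal genes lie below 0 in every pair, with RGS12 and DOK7 lowest, and the proximal genes lie on both sides of 0.

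Distal to the step, 49 of 54 tested genes had a log2 fold change below 0, or 90.7%, with a median of -0.95 (interquartile range -1.38 to -0.64). At the median the G12V level was 51.7% of the MCF10A level. Over the 4 library pairs the distal median was -0.87, -0.90, -1.07 and -1.03, with an SD of 0.10. The pairs share libraries, so this SD is not that of 4 separate measurements. For comparison, the median was 0.00 over the 114 tested genes proximal to the step, -0.01 over the 369 tested genes of chromosome 4 outside the arm and 0.00 over all tested genes. Set against the MCF10A mean of each gene, the distal median was 0.04 and -0.04 in the MCF10A libraries and -0.89 and -1.06 in the G12V libraries. The proximal median was within 0.02 of 0 in all 4 libraries.

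**Figure D3:**
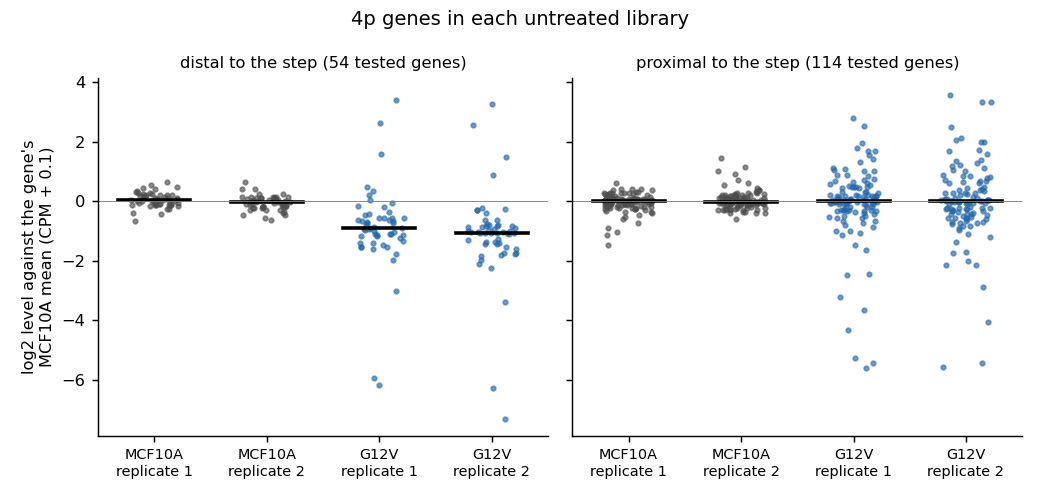
Level of each tested 4p gene in each untreated library (y axis, log2 of CPM + 0.1 against the gene's MCF10A mean), for the 54 genes distal and the 114 genes proximal to the step. Black lines are medians, which lie near 0 in 6 of the 8 columns and at -0.89 and -1.06 for the distal genes in the G12V libraries.

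Genes were called differentially expressed (DE) where edgeR's quasi-likelihood test gave a p under 0.05, adjusted by Benjamini-Hochberg over all tested genes, and the log2 fold change was beyond 0.5 in either direction. Over the whole arm 29 tested members were DE and lower, and 11 were DE and higher, beside 5.95% and 5.01% of all tested genes. Distal to the step 22 were DE and lower, or 40.7%, and 2 were DE and higher. Proximal to it 7 were lower and 9 higher. Both G12V libraries lay below both MCF10A libraries for 42 distal genes and above them for 4, beside 27.4% and 27.5% of all tested genes. Since the arm was chosen for these falls, the counts describe it and support nothing further. The calls also depended on which libraries entered the fit, as given in the closing section. Without MCF10A replicate 1 the distal median was -0.94.

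Of all tested distal genes 90.7% were below 0, 77.8% were lower in both G12V libraries and 40.7% were DE and lower. The gene lists that follow draw on this segment, so their distal counts describe it and say nothing further on function. Of the 20 symbols listed for the Wolf-Hirschhorn region, 17 were found and tested distal to the step. Among these 17 genes 16 were below 0, with a median of -0.86. The DE genes among them, all lower, were PIGG, CTBP1, MAEA, TMEM129, FGFR3 and C4orf48. WHSC1, which encodes the histone H3 lysine 36 methyltransferase NSD2, measured 212 and 180 CPM in MCF10A and 133 and 100 CPM in G12V libraries. LETM1, an ion exchanger of the inner mitochondrial membrane, measured 182 and 138 CPM against 102 and 87.4 CPM. In both genes the groups did not overlap, and the log2 fold changes were -0.75 ± 0.22 and -0.76 ± 0.21 (SE), short of the adjusted threshold. CTBP1, a transcriptional corepressor gene, fell from 116 and 120 CPM to 63.6 and 59.4 CPM. MAEA, a subunit of the CTLH ubiquitin ligase, fell from 104 and 92.1 CPM to 44.8 and 31.9 CPM. PIGG, which adds ethanolamine phosphate to glycosylphosphatidylinositol anchors, fell from 57.3 and 70.6 CPM to 21.9 and 19.0 CPM. The falls of these 3 genes were larger than the spread within either group.

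TACC3 and MXD4 were the members of this list and of at least 10 CPM whose groups overlapped. TACC3, a protein of the mitotic spindle, measured 130 and 73.9 CPM in MCF10A and 76.7 and 36.1 CPM in G12V libraries. MXD4, a MAX-binding repressor gene, measured 106 and 186 CPM against 88.2 and 107 CPM. The highest G12V library thus lay above the lowest MCF10A library for both. NELFA, a subunit of the negative elongation factor, measured 41.9 and 48.5 CPM against 23.2 and 28.8 CPM, and SLBP, which binds the stem loop of histone mRNA, measured 91.2 and 61.6 CPM against 50.2 and 35.7 CPM. MSX1, the homeobox gene of the list that lies proximal to the step, measured 7.14 and 5.99 CPM against 12.2 and 8.88 CPM, and so was higher in both G12V libraries.

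All 6 tested distal genes listed as receptors and signalling proteins were lower in both G12V libraries, beside 77.8% of all tested distal genes. Their median was -1.21, and DGKQ, FGFR3 and RGS12 were DE. FGFR3, a receptor tyrosine kinase for fibroblast growth factors, had 920 and 2352 counts in MCF10A and 19 and 7 counts in G12V libraries, or 41.8 and 103.6 CPM against 0.81 and 0.31 CPM. Its log2 fold change of -6.99 ± 0.67 (SE) was the largest fall among DE members of at least 10 CPM. The genes on either side of it, TACC3 and LETM1, had log2 fold changes of -0.86 ± 0.42 and -0.76 ± 0.21. FGFRL1, a receptor of the same family without the kinase, measured 41.9 and 32.9 CPM against 26.7 and 21.2 CPM. DGKQ, a diacylglycerol kinase gene, fell from 40.0 and 26.1 CPM to 14.6 and 9.37 CPM. SH3BP2, a signalling adaptor gene, measured 43.9 and 52.1 CPM against 35.5 and 26.6 CPM. Of the 12 tested proximal genes of the same list 10 were below 0, beside 49.1% of all tested proximal genes. In 8 of the 12 both G12V libraries lay below both MCF10A libraries, beside 29.8%. TLR1 was DE and lower, SLIT2 was DE and higher, and the median was -0.37.

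Among genes for transcription, chromatin, replication and RNA, 13 were tested distal to the step, and all 13 were below 0, with a median of -0.83. PCGF3, a Polycomb group RING finger gene, fell from 68.6 and 64.7 CPM to 29.5 and 26.0 CPM. RNF4, a ubiquitin ligase that recognises SUMO chains, measured 116 and 86.7 CPM in MCF10A and 62.9 and 47.3 CPM in G12V libraries. The zinc finger genes nearest the telomere, ZNF595, ZNF718, ZNF732, ZNF141 and ZNF721, had log2 fold changes from -1.17 to -0.30, none of them DE. They belong to a large family with similar sequences, and reads that fit several copies make their values uncertain. Of 16 tested proximal genes of this list ZNF518B and PPARGC1A were DE, both lower, and the median was -0.08.

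Of the 5 tested distal genes for metabolism and organelles, 4 were DE, all lower, beside 40.7% of all tested distal genes. ATP5I, subunit e of the mitochondrial ATP synthase, fell from 56.2 and 53.3 CPM to 25.6 and 26.0 CPM. MFSD10, a membrane transporter gene, fell from 167 and 194 CPM to 62.6 and 61.6 CPM. The lysosomal genes IDUA, the iduronidase that degrades glycosaminoglycans, and TMEM175, a lysosomal ion channel, had log2 fold changes of -1.59 ± 0.31 and -1.78 ± 0.37 (SE). For all 4 the libraries of a group lay close together relative to the fall. The 17 tested proximal genes of the list had a median of 0.12, with SLC2A9 lower and PGM2 and UGDH higher among the DE genes.

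In the list for cytoskeleton and membrane traffic all 6 tested distal genes were below 0, with a median of -1.30, and GAK, ADD1, HTT and LRPAP1 were DE. ADD1, alpha-adducin, which joins spectrin to actin filaments, fell from 201 and 215 CPM to 60.5 and 53.4 CPM, a log2 fold change of -1.87 ± 0.18 (SE). GAK, a kinase that helps strip clathrin from vesicles, fell from 100.2 and 83.8 CPM to 42.3 and 36.8 CPM. Of 18 tested proximal genes of the list AFAP1 and LIMCH1 rose and ATP10D fell, and the median was 0.17. In the list for protein turnover and translation RNF4 and MAEA were the 2 tested distal genes, and the 9 proximal ones had a median of -0.05 with none DE. The secreted proteins and the neuronal channels and receptors had no tested gene distal to the step. Proximal to it 5 of each were tested, with FGFBP1 lower and SLIT2 higher among the secreted proteins and GABRA2 higher among the neuronal ones.

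The distal genes that were DE and lower but stood in none of these lists were DOK7, NOP14, TNIP2, FAM193A and SLC26A1. NOP14, a factor of small ribosomal subunit assembly, measured 141 and 142 CPM in MCF10A and 74.95 and 70.0 CPM in G12V libraries. Its antisense neighbour NOP14-AS1 overlaps it, and because the library kit does not keep the strand, their reads cannot be told apart. The same holds for CTBP1 with CTBP1-AS, SLC26A1 with IDUA and AFAP1 with AFAP1-AS1. ZNF595 with ZNF718 and POLN with HAUS3 overlap on 1 strand, and how such reads were shared out makes these values uncertain. TNIP2, an adaptor of NF-kB signalling, measured 46.1 and 45.8 CPM against 23.2 and 22.2 CPM.

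Against the trend of the distal segment, CPLX1 and NAT8L were DE and higher. CPLX1, complexin 1, a protein that binds the SNARE complex in neurons, had 44 and 54 counts in MCF10A and 557 and 493 counts in G12V libraries. NAT8L, the synthase of N-acetylaspartate, had 88 and 109 counts against 637 and 592 counts. The log2 fold changes were 3.38 ± 0.28 and 2.61 ± 0.25 (SE), and these were, with that of TMEM156 between them, the largest among DE members of at least 10 CPM. ZFYVE28, which takes part in sorting the EGF receptor in endosomes, had 23 and 44 counts against 106 and 94 counts, higher in both G12V libraries but short of the threshold. The pseudogene ZNF876P, with 17 and 10 against 20 and 26 counts, and the phosphodiesterase gene PDE6B, with 13 and 12 against 17 and 10 counts, complete the 5 distal genes that were not below 0.

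Proximal to the step the DE genes were scattered over the rest of the arm. FGFBP1, a secreted carrier of fibroblast growth factors, fell from 167 and 169 CPM to 4.28 and 10.1 CPM, a log2 fold change of -4.55 ± 0.43 (SE). SLC2A9, a urate transporter gene, fell from 18.8 and 17.0 CPM to 3.16 and 5.44 CPM. PPARGC1A, the transcriptional coactivator PGC-1 alpha, had 53 and 428 counts in MCF10A and 1 and 1 counts in G12V libraries. Its MCF10A libraries thus differed widely from each other, and both lay above the G12V libraries. ZNF518B, a zinc finger gene, had 63 and 138 counts in MCF10A and 0 in both G12V libraries, which makes it at least 34.1-fold lower when each G12V library is given the floor of 3 counts. NSG1, a protein of neuronal endosomes, is the tested gene next to ZBTB49 and had 95 and 162 counts against 12 and 15 counts. TLR1, a receptor for bacterial lipopeptides, fell from 5.54 and 4.89 CPM to 1.80 and 1.12 CPM, and ATP10D, a phospholipid flippase gene, from 46.3 and 55.7 CPM to 24.4 and 27.0 CPM.

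Higher in G12V cells were TMEM156, a membrane protein gene, from 4.18 and 2.77 CPM to 24.4 and 35.3 CPM, and LIMCH1, which activates non-muscle myosin, from 49.4 and 36.1 CPM to 145 and 236 CPM. PPP2R2C, a regulatory subunit of protein phosphatase 2A, rose from 22.6 and 19.1 CPM to 66.8 and 83.2 CPM. SLIT2, the ligand of ROBO receptors, rose from 15.8 and 15.5 CPM to 60.8 and 47.5 CPM, and AFAP1, an actin filament binding protein, from 58.6 and 50.9 CPM to 137 and 132 CPM. UGDH, which makes UDP-glucuronate, rose from 45.9 and 43.9 CPM to 94.0 and 117 CPM, and PGM2, a phosphoglucomutase, from 74.3 and 74.2 CPM to 116 and 133 CPM. Several abundant genes lay close to their parental level, among them WDR1, an actin disassembly factor, at 456 and 435 against 474 and 452 CPM, and PDS5A, a cohesin regulator, at 278 and 268 against 260 and 266 CPM. RPL9, a ribosomal protein gene with many processed copies, measured 630 and 1053 CPM against 572 and 851 CPM and is uncertain for that reason.

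Of the 129 untested members, 14 lay distal and 115 proximal to the step, and 84 had 0 counts in all 4 libraries. The highest count of any of them in a library was 11. A count of 0 allows up to 3 counts in a library, for counting error only. At the bound of the arm, the tested genes just inside 48 Mb were GABRA2, COMMD8, ATP10D, CORIN and NFXL1, with log2 fold changes of 1.95, -0.03, -0.99, 0.45 and 0.00. Just outside it, CNGA1, NIPAL1, TEC, SLAIN2 and FRYL had -0.57, -0.80, 1.32, 0.01 and -0.90. The bound thus did not coincide with a change in the values.

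The distal genes were also described by features that the rule did not use. When the 54 tested genes were split by mean CPM into 3 groups of 18, the median log2 fold change was -0.71, -1.05 and -0.95 from the lowest group to the highest, and 18 of 18 genes of the highest group were below 0. Split likewise by gene length, the medians were -1.09, -0.90 and -0.91 from short to long. Genes on the plus strand had -1.02 (30 genes) and those on the minus strand -0.88 (24 genes). Exonic GC content, known for 48 of the 54 genes (88.9%), had a median of 57.5% distal to the step, 44.4% proximal to it and 47.8% over all tested genes. Off chromosome 4, in 5 equal groups of genes by GC content, the median log2 fold change was 0.05 in the lowest group and -0.06 in the highest. In the same GC ranges from low to high, the distal genes had medians of -0.60 (7 genes), -0.90 (1 gene), -0.95 (7 genes), -1.39 (9 genes) and -1.01 (24 genes). The distal median was thus below 0 in each class of expression, length, strand and GC content, 1 of which held 1 gene. Since the arm was chosen for these falls, the splits describe them, and the part of these features in the falls was not tested.

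Set beside the rest of the genome, the first 5 Mb of 4p had the lowest median of the 265 windows of 5 Mb with at least 20 tested genes. The next lowest windows stood at -0.33 and -0.31, the highest at 0.62, and the SD of all window medians was 0.15. It was the 1 window with a median below -0.5. Because the arm was picked for being low, this rank describes it and is no test.

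**Figure D4:**
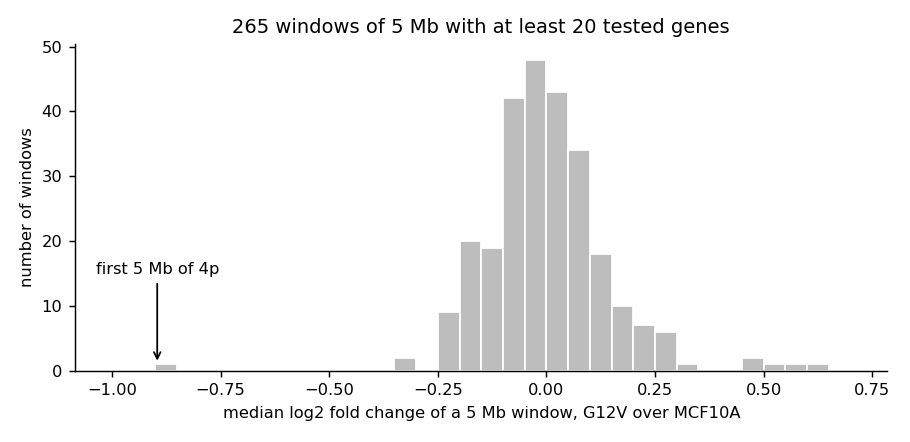
Number of 5 Mb windows (y axis) by the median log2 fold change of their tested genes, G12V over MCF10A cells (x axis), for the 265 windows with at least 20 tested genes. The first 5 Mb of 4p stand alone at -0.90, and the other windows lie between -0.33 and 0.62.

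The distal genes supplied 31.8% and 30.8% of the counts of the arm in MCF10A and 19.0% and 15.8% in G12V libraries. The Nutlin-3a experiment, which the choice of the arm did not use, gives this share in further libraries of parental cells. Its table was annotated separately, 241 members were matched by symbol, and RPL9 was left out because it supplied 7.74% to 12.6% of the arm's matched counts in the untreated table and 0.72% to 1.06% in the other. Over the remaining matched members the distal share was 35.1% and 35.9% in MCF10A, 21.1% and 18.1% in G12V, 32.6%, 32.8% and 33.3% in DMSO and 31.5%, 33.0% and 33.9% in Nutlin-3a libraries. All 6 libraries of that experiment lay above both G12V libraries with or without RPL9, and below both MCF10A libraries only without it. With RPL9 the share was 32.4% and 31.4% in MCF10A and 19.3% and 16.0% in G12V libraries. It was then 32.3%, 32.6% and 33.1% in DMSO and 31.2%, 32.8% and 33.5% in Nutlin-3a libraries. Since the tables were counted on different annotations no test was made between them.

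**Figure D5:**
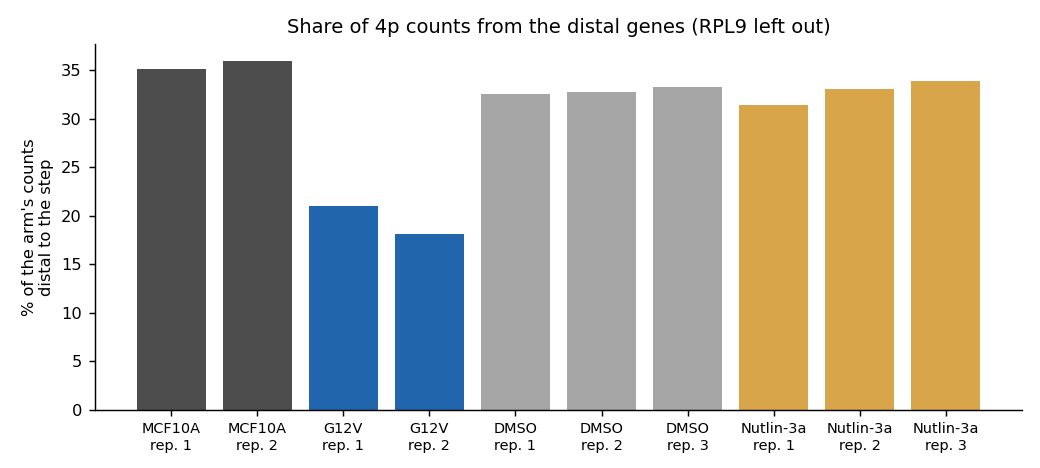
Percent of the arm's counts from genes distal to the step in each of the 10 libraries (y axis, from 0), over the members matched in both tables without RPL9. The 2 G12V libraries stand at 21.1% and 18.1% and the 8 libraries of parental cells between 31.5% and 35.9%.

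Nutlin-3a against DMSO asked whether 4 h of p53 stabilization moved the same genes, and here the test is independent of how the arm was chosen. Of 150 tested members 0 were DE in edgeR's quasi-likelihood test, beside 0.17% of the 13529 genes tested, and 6 had an unadjusted p under 0.05. The median log2 fold change was 0.01 over the 50 tested distal genes, 0.00 over the 100 proximal ones and 0.01 over all tested genes. The replicate numbers pair these libraries, and when they entered the fit as a block 1 member was DE, beside 1.22% of all tested genes, and 17 had an unadjusted p under 0.05. The DE member was RGS12, as it was in DESeq2. RGS12 measured 35.6, 49.7 and 45.5 CPM in DMSO and 70.0, 87.2 and 89.6 CPM in Nutlin-3a libraries, higher in 3 of 3 pairs, with a log2 fold change of 0.92 ± 0.15 (SE) and an edgeR adjusted p of 0.112 without and 6.59e-05 with the block. FGFR3 measured 6.53, 6.99 and 7.70 CPM in DMSO against 6.10, 8.06 and 11.5 CPM in Nutlin-3a libraries, with overlap between the groups. These parental libraries stood below the MCF10A libraries of the untreated table, which was counted and scaled separately. ADD1 measured 180, 193 and 204 CPM against 194, 198 and 186 CPM, and LRPAP1 138, 143 and 138 CPM against 142, 165 and 162 CPM, neither of them DE.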

How the data were processed

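The gene counts were deposited by the authors. Per the labels and the submitters' processing notes, reads were aligned to hg19 with TopHat and counted per gene with HTSeq. The strand setting and annotation release are not given in the sources used here. Poly(A) RNA was prepared with a kit that does not keep the strand. Values here are raw counts, tested with edgeR 4.0.16 in R 4.3.3 (quasi-likelihood F-test, TMM factors, filterByExpr, prior count 0.125), and CPM use TMM-scaled totals. Totals were 21538593 to 23683975 counts per library in the untreated table (2 libraries per group) and 15453226 to 17378734 in the Nutlin-3a table (3 per group). DE required an adjusted p (Benjamini-Hochberg) under 0.05 together with a log2 fold change beyond 0.5 in either direction. Genes were ordered by midpoint, and the step needed at least 10 tested genes on each side. Library pairs were compared as log2 of CPM + 0.1. DESeq2 1.42.0 served as an alternative. The fit and the step search were tested on simulated data. The simulated fall was even and ended elsewhere on the arm, so it does not bear on how closely the boundary was placed. Starts and promoter windows used the coordinates deposited with the counts, and their bases were read from GRCh37. Exons were taken from GENCODE v44 lifted to GRCh37, where 245 of 297 members were matched.

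The members and gene lists were chosen with earlier results of these data known. Named genes were listed genes of at least 10 CPM on average with any DE member, the 5 largest falls and rises among DE members of at least 10 CPM without overlap, the 5 tested genes on each side of the step, and distal DE genes that were higher. Other genes were named after their values were seen. In the Nutlin-3a experiment libraries of the same number deviated together, with correlations of 0.62, 0.60 and 0.64 between their deviations from the group means, so the numbers pair the samples.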

Additional observations from a re-analysis of the deposited data

How the results depend on the processing

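The step stayed between LRPAP1 and ADRA2C under every alternative except 2. It moved to 3.88 Mb with genes of at least 10 CPM, and a second step, when 2 were fitted, fell at 38.9 Mb between TLR6 and FAM114A1, with medians of -0.95, -0.11 and 0.16 over 54, 82 and 32 genes. The distal median was -0.76 with the bound fixed at 10 Mb and -0.60 at 20 Mb, and ranged from -1.08 to -0.91 when 1 library was left out, the lowest without G12V replicate 1. The numbers of DE members depended on the test more than the values did. Members lower in G12V cells numbered 19 among genes of at least 10 CPM, 44 with DESeq2 and 46 with the exact test, and 0 to 33 with 1 library left out, 0 to 25 of these distal. Those higher numbered 18 with DESeq2 and 21 with the exact test. Distal members lower numbered 30 with DESeq2 and 32 with the exact test. Calls also changed with the library left out, over all tested genes as well as on the arm. Such a fit leaves 1 library in a group, so its calls are not counted here. MCF10A and G12V libraries share replicate numbers, but with 2 pairs the numbers are not shown to pair them (correlation 0.49 for same and -0.49 for other numbers). With the replicate number as a block 60 members were lower, 40 of them distal, and 26 were higher. Calls rose over all 14376 tested genes as well. In either direction they numbered 1575 in the main fit, 4158 with the block, 2307 with DESeq2 and 2536 with the exact test. Beside these stood 40, 86, 62 and 67 of the 168 tested members. In the Nutlin-3a comparison 1 member was DE with the block, with DESeq2 and with no filter on low counts, RGS12 each time. No direction reversed among the arm's results. Of the 77 named genes the fold changes of 16 moved under at least 1 alternative. DE calls of named genes were also lost or gained. Their tally pools the fits that leave 1 library in a group, so it is not given. The direction of genes of few counts could turn on 1 library. For ZNF732, lower in the fit, MCF10A replicate 2 lay below both G12V libraries (0.70 against 0.90 and 0.85 CPM). For PDE6B, not lower in the fit, G12V replicate 2 lay below both MCF10A libraries (0.45 against 0.59 and 0.53 CPM). With 2 libraries per group, precision is limited by their number, and values for members of few counts by depth.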
